A study of Mus musculus with 6 samples.

Results

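Insulin-like growth factor (IGF) genes were followed at postnatal day 3 in sciatic nerve RNA of 6 mice, 3 of them wild-type (WT) controls and 3 Dok6 mutants, with 1 library per mouse. The group consists of the 2 ligands Igf1 and Igf2, the 2 receptors Igf1r and Igf2r, and the 6 binding proteins Igfbp2, Igfbp3, Igfbp4, Igfbp5, Igfbp6 and Igfbp7. These 10 genes were taken by gene name from a table of 54532 genes, and all 10 passed the filter on low counts that left 17099 genes for the test. The Dok6 mutant mice carried a conventional deletion. It came from a floxed Dok6 allele and the EIIA-cre transgene, which is active soon after fertilization, so the deletion was meant for all tissues and not for the nerve alone. All mice were kept on a C57BL/6 background, no agent was given, sex was not distinguished, and the controls were called littermates without a statement of which mice shared a litter.

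IGF1 and IGF2 are secreted peptides that promote growth and survival and act mainly through IGF1R, a receptor tyrosine kinase that signals through insulin receptor substrates to the PI3K/AKT pathway and through SHC and GRB2 to the RAS/ERK pathway. IGF2R does not signal as a kinase. It also carries mannose 6-phosphate tagged enzymes to lysosomes, and it binds IGF2 and removes it from the cell surface. The binding proteins hold IGFs in the extracellular space, and proteases that cut them release the ligand. In peripheral nerve, IGFs are known as trophic factors for neurons and for Schwann cells, the glia that wrap axons. In most mouse tissues Igf2 is expressed from the paternal allele and H19 and Igf2r from the maternal allele.

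Values are counts scaled to a common library size (CPM), scaled by the TMM factors, and a gene was called at an adjusted p under 0.05 in the quasi-likelihood test of edgeR, where the Benjamini-Hochberg adjustment ran over the 17099 genes. The libraries held 17699904 to 18678170 counts, and 3 counts, taken as the smallest detectable level, corresponded to 0.156 to 0.172 CPM. This floor covers counting error only. The targeted gene was checked first. Dok6 measured 17.8, 11.9 and 17.5 CPM in control mice 1, 2 and 3, and 7.26, 5.78 and 7.15 CPM in Dok6 mutant mice 1, 2 and 3. It was lower in all 3 mutants (log2 fold change -1.23, SE 0.20, adjusted p = 0.012), and reads of the deleted exon cannot be separated in a count per gene.

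The tissue label was set against marker genes. Sciatic nerve holds axons, Schwann cells and connective tissue but no neuron cell bodies, whereas all 6 libraries held transcripts of central neurons and astrocytes. Gad1, which makes the inhibitory transmitter GABA, was at 167 to 232 CPM, the vesicular glutamate transporter gene Slc17a6 at 242 to 321 CPM and the astrocyte gene Gfap at 189 to 555 CPM. Prx, the periaxin gene of myelinating Schwann cells, was at 10.3, 5.45 and 3.83 CPM in the controls and at 28.2, 330 and 18.7 CPM in the mutants. The libraries are therefore called by their labels here, and all differences below are differences between libraries labelled sciatic nerve. In RNA of a whole tissue, fewer cells of a type cannot be told apart from less RNA per cell.

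Of the 10 IGF genes, 3 were higher in the Dok6 mutants (Igf2r, Igfbp4 and Igfbp6) and 0 were lower, and 7 were not called. At an unadjusted p under 0.05 in edgeR, 5 were higher (Igfbp2 and Igfbp7 in addition) and 0 lower. Of all 17099 genes tested, 5737 had an unadjusted p under 0.05, 2656 of them in the lower direction. At the adjusted threshold, 8.62% of all genes tested were called higher and 6.01% lower. The median log2 fold change of the 10 genes was 0.35 against 0.01 for all genes tested. In 5 of the 10, namely Igf2r, Igfbp2, Igfbp4, Igfbp6 and Igfbp7, every mutant lay above every control, and in 0 every mutant lay below every control. The same held for 19.6% of all genes tested in the higher and 18.7% in the lower direction. With a log2 fold change above 1 as well, Igfbp6 alone of the 10 genes was called higher, against 3.58% of all genes, and at the study's threshold of 2 in either direction 0 were called, against 1.19% of all genes.

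**Figure D1:**
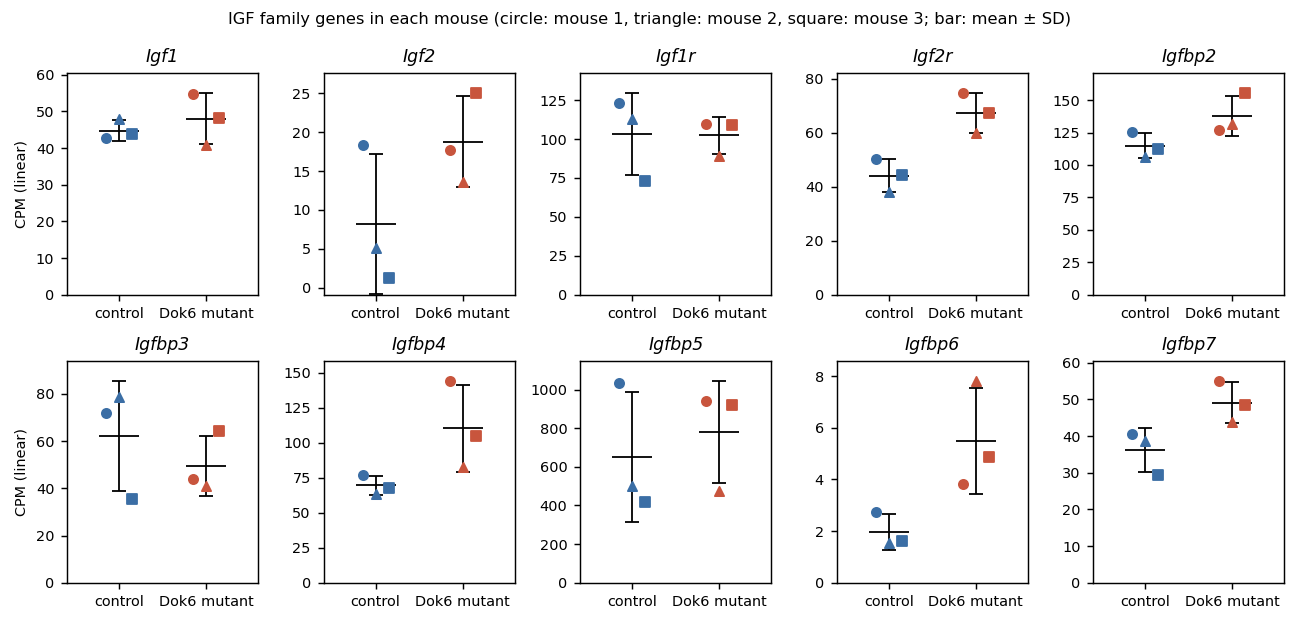
Level of each IGF gene in each mouse, in CPM on a linear axis. Points are the 3 control (blue) and 3 Dok6 mutant (red) mice, and bars give mean ± SD. The genotypes do not overlap for Igf2r, Igfbp2, Igfbp4, Igfbp6 and Igfbp7, and the controls of Igf2 run from 1.26 to 18.4 CPM.

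The genes called higher are shown with the 250 bases before a RefSeq start (GRCm38.p6), 5′ to 3′ on the strand of the gene, because they are the 3 members past the test. Capitals mark matches to the GC box letters GGGCGG or the TATA box letters TATAAA on either strand, and TTTATA is the second motif read on the opposite strand. The Igf2r sequence is chr17:12769707-12769956 on the minus strand, the Igfbp4 sequence is chr11:99040994-99041243 on the plus strand, and the Igfbp6 sequence is chr15:102143936-102144185 on the plus strand.
Igf2r: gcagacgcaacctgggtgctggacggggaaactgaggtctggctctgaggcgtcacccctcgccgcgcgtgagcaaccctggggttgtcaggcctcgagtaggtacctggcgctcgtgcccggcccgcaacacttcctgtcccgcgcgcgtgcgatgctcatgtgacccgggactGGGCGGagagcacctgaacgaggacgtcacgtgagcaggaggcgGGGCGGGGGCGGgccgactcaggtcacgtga
Igfbp4: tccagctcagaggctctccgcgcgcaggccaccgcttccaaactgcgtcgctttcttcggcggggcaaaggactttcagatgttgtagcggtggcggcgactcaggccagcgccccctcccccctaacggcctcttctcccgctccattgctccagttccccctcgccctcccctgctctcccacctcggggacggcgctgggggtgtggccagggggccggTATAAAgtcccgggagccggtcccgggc
Igfbp6: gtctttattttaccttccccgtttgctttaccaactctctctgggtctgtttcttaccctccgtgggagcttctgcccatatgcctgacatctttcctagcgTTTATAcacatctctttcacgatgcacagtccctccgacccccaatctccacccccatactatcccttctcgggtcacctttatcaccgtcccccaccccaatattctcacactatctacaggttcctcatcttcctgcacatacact
The Igf2r promoter held 3 GC box matches, 2 of them adjoining, with 27 CpG dinucleotides and a GC content of 69.2%. The Igfbp4 promoter held 22 CpG dinucleotides and 1 TATA box match on its own strand, whose first base lay 28 bases before the start. The Igfbp6 promoter was less rich in GC (49.6%, with 7 CpG dinucleotides), and its 1 TATA box match lay on the opposite strand, 148 bases before the start. This window ends at 102144185, before the GENCODE M21 start of Igfbp6 at 102144362. Its distance and GC content hold for the RefSeq start only. The 3 promoters share neither motif. Among the 14 RefSeq promoters of the 10 IGF genes, 6 held a GC box and 2 held a TATA box. Of the 32851 mouse promoters of the same length, 32.7% held a GC box and 12.4% a TATA box. These matches are letters in a window and were not tested as binding sites.

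Igf1, whose product is the main IGF of postnatal growth, did not pass the test. It lies at chromosome 10, 87858265 to 87937042 on the plus strand (GRCm38, GENCODE M21). Its level was 42.6, 48.0 and 43.7 CPM in control mice 1 to 3 and 54.8, 41.0 and 48.2 CPM in mutant mice 1 to 3. The genotypes overlapped, with the highest and the lowest value both among the mutants. The means were 44.8 ± 2.85 CPM and 48.0 ± 6.93 CPM (SD, n = 3 each), and the log2 fold change of 0.10 had a 95% interval of -0.17 to 0.37 (adjusted p = 0.594 in edgeR).

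Igf2, which encodes the ligand best known for fetal growth, was the member with the widest spread among controls. It lies at chromosome 7, 142650766 to 142666816 on the minus strand. The controls held 320, 88 and 22 counts, or 18.4, 5.04 and 1.26 CPM. The mutants held 342, 248 and 473 counts, or 17.7, 13.5 and 25.1 CPM. Control mouse 1 lay within the range of the mutants, and control mice 2 and 3 lay below it. The highest control was 14.6-fold above the lowest, and the highest mutant 1.85-fold above the lowest mutant. Of 10672 tested genes with a mean of at least 10 CPM, 6 (0.0562%) had a control ratio as large as that of Igf2, and the median ratio was 1.18. The means were 8.22 ± 8.98 CPM and 18.8 ± 5.84 CPM (SD, n = 3 each), a log2 fold change of 1.19 (95% interval -0.40 to 2.78, adjusted p = 0.266 in edgeR). This value moved in opposite directions with control mice 1 and 3. Without control mouse 1 the log2 fold change was 2.57 and Igf2 was called (adjusted p = 0.0372 in edgeR), and without control mouse 3 it was 0.69 (adjusted p = 0.376). In the other fits without 1 mouse Igf2 was not called.

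Reads on Igf2 may belong in part to an overlapping gene model. Gm49394 shares 3596 bases (62.8%) of the Igf2 exons on the same strand, and it was listed at 0 in all 6 libraries. The remaining 37.2% of the Igf2 exon bases are outside Gm49394. The antisense gene Igf2os overlaps 98 bases (1.71%) and held 28, 18 and 9 counts in the controls and 14, 15 and 28 in the mutants. How reads on shared bases were counted, and whether strand was used, is not given in the sources used here.

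The genes whose pattern over the 6 mice was closest to that of Igf2 were Mrc1, H19, Col18a1, Lox and Rcn3, measured as the root mean square difference of log2 CPM centred on each gene's mean, over 10663 candidate genes. Mrc1, which encodes the mannose receptor of macrophages, differed from Igf2 by 0.305 and measured 16.1, 5.22 and 1.89 CPM in the controls and 15.3, 9.60 and 18.8 CPM in the mutants. H19, the imprinted noncoding RNA gene that lies 72.6 kb from Igf2, differed by 0.435. Col18a1, a basement membrane collagen gene, differed by 0.485 and measured 67.0, 23.5 and 15.4 CPM against 62.7, 54.3 and 91.6 CPM. In Mrc1, H19 and Col18a1, as in Igf2, control mouse 1 was the highest and control mouse 3 the lowest of the controls, and mutant mouse 2 was the lowest of the mutants. Lox and Rcn3 had the same order in the controls, but their lowest mutants were mouse 3 and mouse 1. For Igf1 the closest genes were Ntpcr (0.0559), Accs (0.0649), Zcchc8 (0.067), Galk2 (0.0686) and Tgfb2 (0.0722). Such likeness over 6 libraries is a description.

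**Figure D2:**
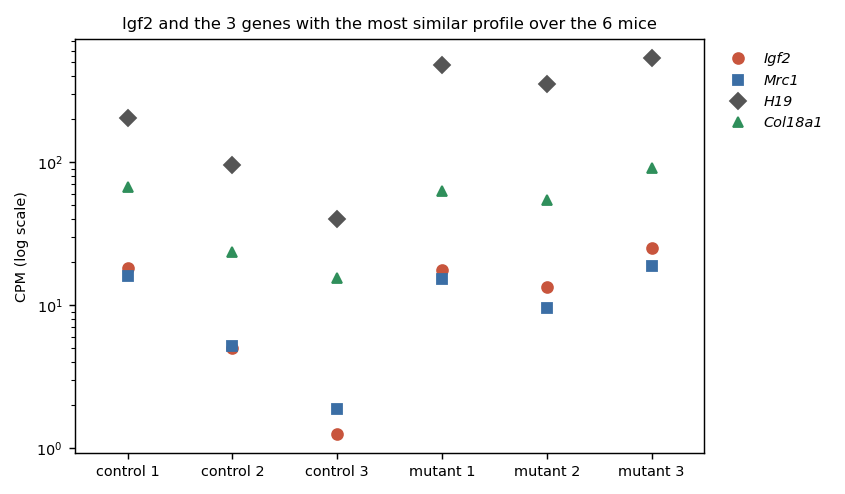
Igf2 and its closest genes Mrc1, H19 and Col18a1 in each mouse, in CPM on a log axis. Each symbol is 1 library. In all 4 genes control mouse 3 is the lowest of the 6 libraries, with Igf2 at 1.26 CPM there and 25.1 CPM in mutant mouse 3.

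Markers of vessels and connective tissue moved with genotype too. The summed level of 10 endothelial markers was 334, 249 and 208 CPM in the controls and 438, 357 and 488 CPM in the mutants, the same order of mice within each genotype as for Igf2, and 4 of 10 were called higher. The summed level of 15 nerve and meningeal fibroblast markers was 1254, 579 and 388 CPM in the controls and 2421, 3197 and 2092 CPM in the mutants, with 6 of 15 called higher. The 9 pericyte and smooth muscle markers summed to 252 to 373 CPM and 401 to 707 CPM, with 2 of 9 called higher. No marker of these 3 lists was at 0 in every library, and their part in the values of Igf2 and the other IGF genes was not tested.

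Igf1r, the signalling receptor, did not pass the test. It lies at chromosome 7, 67952827 to 68233668 on the plus strand. It measured 123, 113 and 73.1 CPM in the controls and 110, 88.9 and 109 CPM in the mutants. The mutants lay inside the range of the controls. The log2 fold change was -0.01 with a 95% interval of -0.42 to 0.40 (adjusted p = 0.985 in edgeR), and its sign changed with the processing.

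Igf2r, the gene of the clearance receptor, was higher in the Dok6 mutants. It lies at chromosome 17, 12682406 to 12769664 on the minus strand, and its GC-rich promoter is printed above. It measured 50.1, 38.1 and 44.1 CPM in the controls and 74.5, 60.0 and 67.2 CPM in the mutants, and the lowest mutant lay above the highest control. The means were 44.1 ± 5.98 CPM and 67.2 ± 7.27 CPM (SD, n = 3 each), a 1.52-fold difference (log2 fold change 0.61, 95% interval 0.32 to 0.89, adjusted p = 0.0208 in edgeR). The call was lost without control mouse 2 (adjusted p = 0.0927) and without mutant mouse 1 (adjusted p = 0.065). Airn, the noncoding RNA gene on the opposite strand of Igf2r, shares no exon bases with it. Airn measured 4.02, 4.18 and 5.09 CPM in the controls and 6.54, 5.29 and 4.45 CPM in the mutants (log2 fold change 0.29, adjusted p = 0.369 in edgeR).

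Per length, in the same unit divided by gene length in kilobases (RPKM), Igf2r stood at 0.735, 0.61 and 1.09 times the level of Igf1r in the controls and at 1.23, 1.22 and 1.11 times in the mutants. Igf1r was thus above Igf2r in control mice 1 and 2 alone. Control mouse 3 had a ratio close to that of mutant mouse 3, and the genotypes did not overlap.

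Among the binding proteins, 2 were called higher. Igfbp6, whose product binds IGF2 with much higher affinity than IGF1, had the largest log2 fold change of the 10 genes in the main fit and the lowest CPM. Igf2 had a larger one with limma voom (1.89 against 1.45), the replicate block (1.66 against 1.46) and without control mouse 1 (2.57 against 1.80). Igfbp6 lies at chromosome 15, 102144362 to 102149511 on the plus strand. It held 48, 27 and 28 counts in the controls (2.75, 1.55 and 1.60 CPM) and 74, 143 and 92 counts in the mutants (3.84, 7.80 and 4.88 CPM). All mutants lay above all controls, with mutant mouse 2 the highest. The means were 1.97 ± 0.682 CPM and 5.50 ± 2.05 CPM (SD, n = 3 each), a 2.79-fold difference (log2 fold change 1.48, 95% interval 0.69 to 2.27, adjusted p = 0.0278 in edgeR). The call was lost without control mouse 2 (adjusted p = 0.119), control mouse 3 (0.0715) or mutant mouse 2 (0.0844). Mutant mouse 2 was also the library with the most Prx (330 CPM) and the highest sum of 15 Schwann cell markers, which ran from 301 to 1837 CPM in the controls and from 699 to 7117 CPM in the mutants, with 8 of 15 called higher and none at 0 in every library. The same mouse had the highest sums of fibroblast (3197 CPM), sensory neuron (1868 CPM) and oligodendrocyte lineage (1995 CPM) markers. The part of any of these markers in the Igfbp6 value was not tested.

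Igfbp4, which encodes an inhibitor that frees its bound IGF when cut by the protease PAPP-A, was the other. It lies at chromosome 11, 99041244 to 99054392 on the plus strand. It measured 77.2, 63.7 and 68.0 CPM in the controls and 144, 82.9 and 105 CPM in the mutants, and all mutants lay above all controls. The means were 69.6 ± 6.86 CPM and 111 ± 31.0 CPM (SD, n = 3 each), a 1.59-fold difference (log2 fold change 0.67, 95% interval 0.25 to 1.08, adjusted p = 0.0434 in edgeR). This call was the least stable of the 3. Without mutant mouse 1 the log2 fold change fell to 0.43 (adjusted p = 0.0972), and without control mouse 1, 2 or 3 or mutant mouse 3 the adjusted p was 0.0725, 0.162, 0.0985 and 0.0533. It was also lost with limma voom (adjusted p = 0.0547). Of the fits without 1 mouse, Igfbp4 was called only in that without mutant mouse 2.

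Igfbp2 and Igfbp7 were higher in every mutant than in every control and did not pass the adjusted threshold. Igfbp7, a related gene whose product binds IGFs weakly, measured 40.6, 38.5 and 29.3 CPM in the controls and 54.9, 43.8 and 48.5 CPM in the mutants (log2 fold change 0.44, 95% interval 0.12 to 0.77, adjusted p = 0.0688 in edgeR). Igfbp2 measured 125, 107 and 112 CPM in the controls and 127, 132 and 155 CPM in the mutants (log2 fold change 0.26, 95% interval 0.03 to 0.49, adjusted p = 0.108 in edgeR). The lowest mutant of Igfbp2, at 127 CPM, was close to the highest control, at 125 CPM. Igfbp7 shares 85 exon bases (7.03%) with Polr2b on the opposite strand.

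Igfbp5 and Igfbp3 overlapped between genotypes. Igfbp5, the gene of a matrix-bound binding protein, measured 1035, 498 and 416 CPM in the controls and 941, 474 and 921 CPM in the mutants. It was high in control mouse 1 and mutant mice 1 and 3 and about as low in the other 3 mice, so that each genotype held both levels. Its log2 fold change was 0.26 with a 95% interval of -0.56 to 1.08 (adjusted p = 0.645 in edgeR), and 1.18% of the 10672 genes had a control ratio as large. Igfbp3, whose product carries most IGF in blood, measured 71.9, 78.8 and 35.6 CPM in the controls and 43.8, 40.9 and 64.2 CPM in the mutants. Control mouse 3 and mutant mouse 3 stood apart from the other 2 mice of their genotype, in opposite directions. The log2 fold change of -0.32 had a 95% interval of -0.97 to 0.33 (adjusted p = 0.458 in edgeR).

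**Figure D3:**
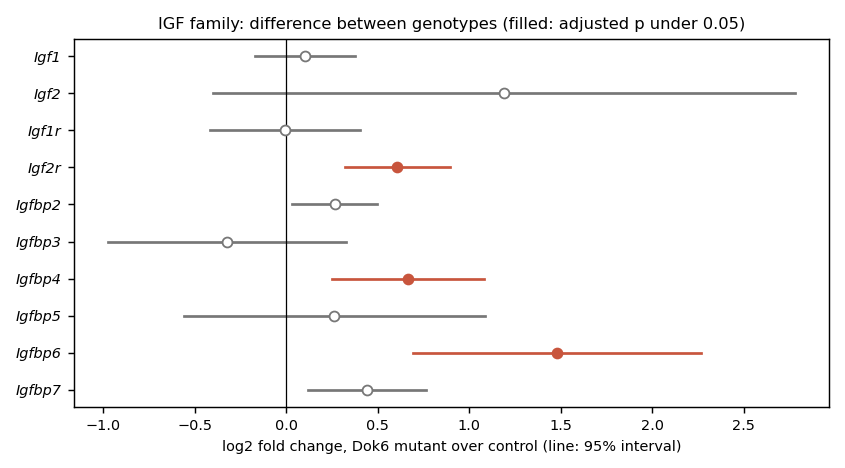
Log2 fold change of each IGF gene, Dok6 mutant over control, with its 95% interval from the edgeR fit. Filled red points are the genes called at an adjusted p under 0.05, namely Igf2r at 0.61, Igfbp4 at 0.67 and Igfbp6 at 1.48. The interval of Igf2, from -0.40 to 2.78, is the widest.

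Within a genotype, the order of the mice was compared over the 10 genes. Control mouse 1 was the highest control in 8 of the 10, and the lowest control was mouse 3 in 5 genes, mouse 2 in 4 and mouse 1 in 1. Mutant mouse 2 was the lowest mutant in 8 of the 10, the exceptions being Igfbp2 and Igfbp6. The ratio of the highest to the lowest mouse was above the median of the 10672 genes in 9 members among controls and in 10 among mutants. Those genes had a mean of at least 10 CPM, whereas Igfbp6 averaged 3.74 CPM, so its ratio was not set against genes of like level. The closest pairs of members over the 6 mice were Igf2r with Igfbp4 (0.147), Igf2r with Igfbp7 (0.191) and Igf1 with Igfbp2 (0.215), on the measure used for Igf2.

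Per length, 5 of the 6 binding protein genes, all but Igfbp6, had higher mean levels than the ligand and receptor genes. Igfbp5 had the highest level, at 108 ± 56.0 RPKM in controls and 130 ± 44.0 RPKM in mutants (SD, n = 3 each). Igfbp2 followed at 62.2 ± 5.26 and 74.6 ± 8.23 RPKM, and Igfbp7 at 29.9 ± 4.99 and 40.6 ± 4.62 RPKM. Igfbp5 was above Igfbp2 in all 6 libraries although their ranges overlapped, and Igfbp2 was above Igfbp7 with no overlap. Igfbp4 (15.8 ± 1.55 and 25.0 ± 7.02 RPKM) and Igfbp3 (19.8 ± 7.42 and 15.9 ± 4.07 RPKM) were next. Their order was not fixed, since Igfbp4 was the higher of the pair in 4 of 6 libraries.

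The other 5 genes lay below Igfbp3 with no overlap between Igfbp3 and Igf1r. Igf1r was at 6.13 ± 1.57 and 6.11 ± 0.706 RPKM, Igf2r at 4.74 ± 0.643 and 7.22 ± 0.781 RPKM, and Igf1 at 4.52 ± 0.288 and 4.85 ± 0.700 RPKM. Igfbp6 was at 1.77 ± 0.613 and 4.95 ± 1.85 RPKM, and Igf2 at 1.44 ± 1.57 and 3.28 ± 1.02 RPKM. Neighbours in this order overlapped in range. The order by CPM differs, because long transcripts such as Igf1r give more reads per molecule.

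The 2 ligands summed to 7.51, 5.73 and 4.64 RPKM in the controls and to 8.64, 6.50 and 9.25 RPKM in the mutants. Igf2 made up 42.7%, 15.4% and 4.74% of this sum in the controls and 35.9%, 36.4% and 47.4% in the mutants. By these values Igf1 was the larger ligand transcript in all 6 libraries. RPKM of Igf2 used its full exon length, of which 62.8% is shared with Gm49394. If reads on shared bases went uncounted, Igf2 is understated. The ligand order, the Igf2 shares and the rank of Igf2 depend on this. The 6 binding proteins summed to 317, 214 and 182 RPKM in the controls and 321, 225 and 326 RPKM in the mutants, and the genotypes overlapped. Without Igfbp5 the sum was 144, 131 and 113 RPKM against 164, 146 and 173 RPKM, with no overlap. Igfbp5 made up 35.0% to 54.4% of the sum and Igfbp2 21.4% to 33.3%, whereas Igfbp6 made up 0.652% to 3.11%, most in mutant mouse 2.

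**Figure D4:**
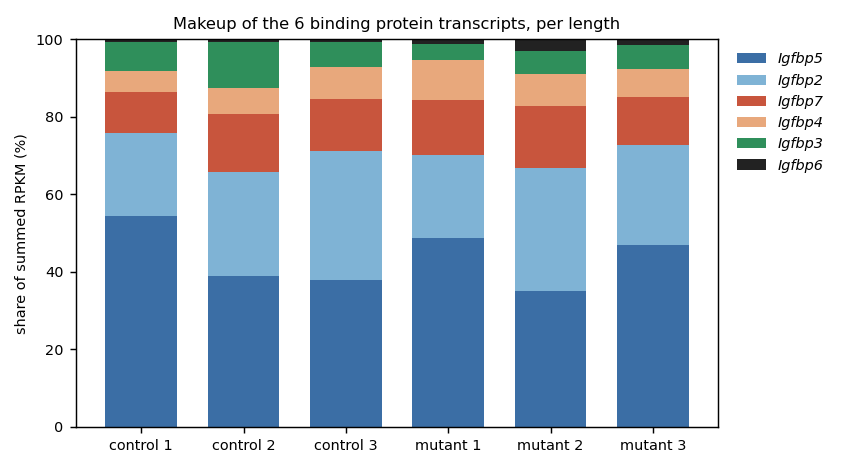
Share of each of the 6 binding protein genes in their summed RPKM, in percent, for each library. Stacked bars add to the whole sum. Igfbp5 and Igfbp2 are the largest shares in every library, and Igfbp6 reaches 3.11% in mutant mouse 2.

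The wider pathway was read from 5 lists of 89 genes, of which 84 were tested. Of these, 10 were called higher and 5 lower, and the median log2 fold change was 0.04. Against the 8.62% and 6.01% of all genes given above, these counts are close to the background. Esm1, Igfals, Igfbp1, Ins2 and Irs3 did not pass the filter. All 15 genes called are named below. In each the genotypes did not overlap, which adds no support, since the genes were chosen by a test of the same values.

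Genes that set IGF availability (13 tested) held 1 call in each direction. Htra3, which encodes a secreted serine protease with an IGF-binding protein-like domain, measured 11.7, 10.7 and 8.98 CPM in the controls and 28.0, 18.5 and 21.2 CPM in the mutants (log2 fold change 1.11, SE 0.18, adjusted p = 0.0125 in edgeR). Crim1, the gene of a membrane protein with an IGF-binding protein-like motif, measured 198, 204 and 194 CPM in the controls and 146, 118 and 164 CPM in the mutants (log2 fold change -0.48, SE 0.12, adjusted p = 0.0305).

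Among 8 tested genes listed as regulators of IGF transcripts or imprinted neighbours, H19 and Hmga2 were higher and Lin28b lower. H19 measured 203, 95.7 and 39.8 CPM in the controls and 479, 353 and 535 CPM in the mutants (log2 fold change 2.01, SE 0.48, adjusted p = 0.03 in edgeR). H19 was thus above every control in all 3 mutants, unlike Igf2. Hmga2, a chromatin protein gene of growing tissue, was at 6.42 to 8.01 CPM in the controls and 10.5 to 12.9 CPM in the mutants (log2 fold change 0.68, adjusted p = 0.0297). Lin28b, the gene of an RNA-binding protein of early development, was at 23.5 to 25.1 CPM in the controls and at most 18.1 CPM in the mutants (log2 fold change -0.67, adjusted p = 0.0279).

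Of 19 tested receptor-proximal genes, Insrr, Shc1 and Shc2 were higher and Grb2 lower. Insrr, which encodes a receptor kinase related to the insulin receptor, held 10, 6 and 1 counts in the controls and 25, 84 and 92 in the mutants (log2 fold change 3.44, adjusted p = 0.0194 in edgeR). Shc1, an adaptor of the RAS pathway, measured 13.0, 7.57 and 6.86 CPM in the controls and 23.0, 27.4 and 29.3 CPM in the mutants (log2 fold change 1.54, adjusted p = 0.0108). Shc2, its neuronal relative, was at 47.2 to 56.4 CPM and 65.2 to 85.3 CPM (log2 fold change 0.60, adjusted p = 0.0207). Grb2, which links SHC to RAS activation, was at 217 to 227 CPM and 168 to 199 CPM (log2 fold change -0.31, adjusted p = 0.0487).

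Of 27 PI3K, AKT and mTOR genes, the catalytic subunit gene Pik3cd was higher (log2 fold change 0.75, adjusted p = 0.02 in edgeR). Another catalytic subunit gene, Pik3cb, was lower (-0.38, adjusted p = 0.0452), as was Rictor of mTOR complex 2 (-0.43, adjusted p = 0.0382). Of 17 RAS and ERK genes, 3 kinase genes were higher and 0 lower in edgeR. At an unadjusted p under 0.05, 2 of the 17 were lower, against 2656 of all 17099 genes tested. Mapk3, which encodes ERK1, rose by 0.50 on the log2 scale (adjusted p = 0.025), Rps6ka3 by 0.41 (adjusted p = 0.0239) and Map2k1, which encodes MEK1, by 0.36 (adjusted p = 0.0301). Of the 5 genes called lower, Pik3cb was called in 0 of the 6 fits without 1 mouse (adjusted p from 0.0753 to 0.12) and Crim1, Lin28b, Grb2 and Rictor in 1 of 6 each. Of the 10 called higher, Hmga2 and Map2k1 were called in 2 of 6, H19, Mapk3 and Rps6ka3 in 3, Pik3cd, Insrr and Shc2 in 4, and Htra3 and Shc1 in 5. None of the 15 genes was called without control mouse 2, a fit in which 0 of the 10 IGF genes and 56 of all genes were called higher.

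**Figure D5:**
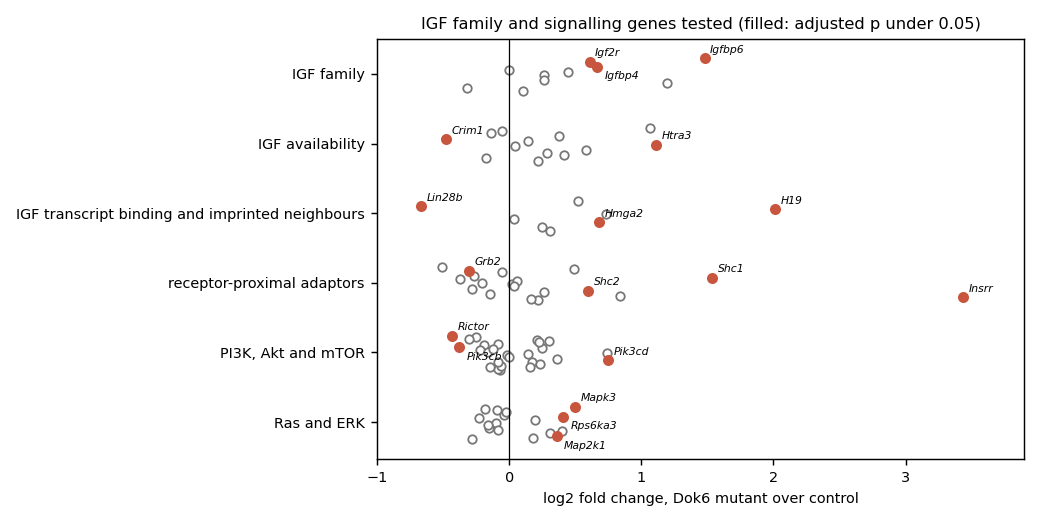
Log2 fold change, Dok6 mutant over control, of the 10 IGF genes and the 84 tested genes of the 5 pathway lists. Each point is 1 gene, spread vertically within its list for legibility only, and filled points are called at an adjusted p under 0.05. Insrr at 3.44 and H19 at 2.01 lie farthest from 0, and most points lie between -0.5 and 0.5.

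Markers of other cell types are set beside these lists, where 8.62% of all genes tested were called higher and 6.01% lower. The 15 sensory neuron markers summed to 948 to 1116 CPM in the controls and 1282 to 1868 CPM in the mutants, with 10 of 15 called higher. Such a sum weighs the most abundant markers. The median log2 fold change of the 15 was 3.76. Scn10a measured 1.20 to 3.10 CPM in the controls and 46.0 to 167 CPM in the mutants. The 23 skeletal muscle markers summed to 51.8 to 73.1 CPM and 192 to 858 CPM, with 16 of the 20 tested called higher and 1 marker at 0 in all libraries. The 12 central neuron markers summed to 3493 to 4113 CPM and 2990 to 3528 CPM, with 2 of 12 called lower. Macrophage and microglia markers summed to 128 to 177 CPM and 180 to 210 CPM, with 1 of 11 called higher. Perineurium markers summed to 61.8 to 141 CPM and 117 to 194 CPM, which overlapped, with 1 of 6 called higher. The 6 erythroid markers summed to 431 to 747 CPM and 75.5 to 290.2 CPM, with 4 of the 5 tested called lower. Astrocyte and oligodendrocyte markers held 0 calls of 7 and of 10 in edgeR. At an unadjusted p under 0.05 they held 0 and 2, against 5737 of all 17099 genes tested. The part of these markers in the IGF and pathway values was not tested.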

How the data were processed

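RNA libraries of sciatic nerve were prepared with a NEBNext Ultra RNA kit (directional in the study's methods) and sequenced on an Illumina NovaSeq. The authors deposited counts, whole numbers of reads per gene and mouse that were not normalized, with gene lengths. The submitters' processing notes name mm10, and the aligner, the counting tool and the use of strand are not given in the sources used here. Library totals ranged from 17699904 to 18678170 counts, and the floor of 3 counts covers counting error only.

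From these counts, 17099 genes were kept by filterByExpr in edgeR 4.0.16 (R 4.3.3), scaled by TMM and fitted with glmQLFit and glmQLFTest on genotype over all 6 libraries. The Benjamini-Hochberg adjustment ran over every gene tested. The biological coefficient of variation was 16.6%. SE and 95% intervals were derived from the F statistic. RPKM used the deposited lengths, which equalled the GENCODE M21 exonic length for all 10 IGF genes. Each label names a separate mouse, and any 2 libraries differed by more than sampling noise (the lowest chi-square per degree of freedom was 8.86). At this group size an exact permutation test of a gene on its own cannot go below p = 0.10, so only the fit across genes was used.

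All 10 IGF genes, Dok6, up to 3 called genes of each direction per pathway list, and the 5 genes closest to Igf1 and to Igf2 (log2 of CPM plus 0.5, mean of at least 10 CPM) were named by rule. Genes named for tissue, overlap or position were added after their values were seen. The members and lists were chosen with earlier results of these data known. BLAST 2.17.0 was used to look for similar transcripts (95% identity, 200 bases or more). No other IGF gene than Igf2 and Igfbp7 shared exons with another gene, and only Igf2 had such a transcript. The procedure was tested on simulated data. Alternatives were DESeq2 1.42.0, limma 3.58.1 voom, scaling by RLE or the upper quartile, testing without a filter or with a minimum of 10 counts per sample, log2 fold change thresholds of 1 and 2, the replicate number as a block and leaving out each mouse. The DESeq2 fit left out the filter on low counts and took in 30965 genes.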

Additional observations from a re-analysis of the deposited data

How the results depend on the processing

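The 3 IGF genes called higher became 4 with DESeq2 and with no filter and 2 with limma voom. DESeq2 also left out the filter, so it changed the test and the filter together. In fits without 1 mouse the IGF genes called higher numbered 0 to 3. They numbered 0 without control mouse 2, 1 without control mouse 3 and 1 without mutant mouse 1. The 3 without control mouse 1 included Igf2 and not Igfbp4. With a log2 fold change above 1 they numbered 1, and above 2 they numbered 0. No IGF gene was called lower under any alternative. Igfbp7 was called with DESeq2 (adjusted p = 0.0374) and with no filter (0.0367), and Igfbp4 was not called with limma voom (0.0547).

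Of the pathway genes, the 10 called higher became 4 above a log2 fold change of 1, 2 above 2, and 0 to 15 without 1 mouse (0 without control mouse 2, 2 without mutant mouse 2). The 5 called lower became 8 with DESeq2, which also left out the filter, and 6 with no filter in edgeR. They became 0 above a log2 fold change of 1 or 2, and 0 to 5 without 1 mouse. They numbered 0 without control mouse 1 or 2 or mutant mouse 1 or 2, and 1 without control mouse 3. The 5 without mutant mouse 3 did not include Pik3cb (adjusted p = 0.0829) or Rictor (0.0519). None of the 15 named pathway genes changed sign.

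The labels number the mice 1 to 3 in both genotypes, but deviations of same-numbered mice correlated at -0.01, -0.17 and -0.24, so the mice share only a number. With the replicate block, 2 IGF genes were called higher, with Igfbp6 lost (adjusted p = 0.0785), and 3 pathway genes were called higher and 0 lower. All genes called fell to 432 higher and 130 lower with the replicate block, and to 56 and 12 without control mouse 2, against 1474 and 1028. Igf1r reversed in sign to 0.023 with limma voom, 0.0026 with at least 10 counts in every sample, 0.0199 with the replicate block, 0.14 and 0.06 without control mouse 1 and 2, and 0.09 without mutant mouse 2, and Igf1 reversed to -0.0066 without mutant mouse 1. In fits without 1 mouse, Igf1r ran from -0.20 to 0.14 and Igf1 from -0.0066 to 0.20. Igfbp5 ran from 0.03 to 0.77 (the latter without control mouse 1) and Igfbp3 from -0.60 to -0.12. The cause of these changes was not tested. By CPM in place of RPKM, which leaves out the division by gene length, the ranks from the highest became 3 for Igf1r, 6 for Igf2r, 7 for Igf1, 8 for Igfbp7, 9 for Igf2 and 10 for Igfbp6. Marker sums scaled by total counts kept within 1 SD. Counts were low in some libraries for Igf2 (22 in control mouse 3), Igfbp6 (27 in control mouse 2) and Insrr (1 in control mouse 3), which limits the precision of their values.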
